A study of Mus musculus with 8 samples.

Results

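Imprinted genes are expressed from the copy inherited from 1 parent, and 36 of them, out of 31554 annotated mouse genes of the same types, were examined for where wild-type NANOG and an engineered NANOG sat on chromatin. The members are a list of gene names, and the rule that finds them uses no measured value. The list was drawn up with earlier results of these data known. Each was represented by its gene body in the mouse build mm10 and 10 kb on each side. The windows fell into 17 clusters, merged into 28 stretches of 2672 kb in all, and held 168 of the 123412 regions formed by merging the 8 peak lists of the series. Every member had a peak in at least 1 list.

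The lists came from mouse embryonic fibroblasts (MEFs) profiled by CUT&Tag on day 5 of reprogramming. CUT&Tag tethers a transposase to an antibody, so that DNA near the target is cut out and sequenced. The fibroblasts came from embryos of a mixed strain cross that carry the OG2 reporter, and all received retroviral Oct4, a pluripotency factor. In the first arm (labelled Nanog+Oct4, called NanogWT here) Oct4 was joined by FLAG-tagged wild-type Nanog. In the second (labelled NanogN70+Oct4, called NanogBiD) it was joined by Nanog fused to the BRG1-interacting domain of SS18, an identity given in the text of the study and not in the labels. The 4 targets were the FLAG tag on NANOG, BRG1 (Smarca4, the ATPase that drives the BAF chromatin remodeller), H3K27ac (a mark of active promoters and enhancers) and H3K4me1 (a mark typical of enhancers).

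There was 1 deposited library for each of the 8 groups, and the sources conflict on whether replicates were merged into it. No comparison between arms could therefore be set against the spread between cultures, and no test between arms was made. The lists held between 30859 and 74782 peaks, and do not give sequencing depth. The read totals in the supplement of the study differ between arms: FLAG in NanogWT was the shallowest library, several-fold below FLAG in NanogBiD, BRG1 was also shallower in NanogWT, and both histone marks were deeper there. The part of depth in the differences between arms was not tested. Summit heights are numbers of tags piled up at the top of a peak and were not scaled to depth, and no list holds a peak with a score under 50.0. The cells were bulk cultures, so that more cells carrying a site and more signal per cell cannot be told apart. Of 10 fibroblast genes, among them Col1a1 and Vim, 9 had an H3K27ac peak within 2 kb of a start site in each arm, and 9 had a FLAG peak in each arm. BRG1 peaks were found at 8 in NanogWT and 9 in NanogBiD, and H3K4me1 peaks at 9 and 6. Over all genes of the same types, H3K27ac was found at 47.4% and 50.3% of promoters, FLAG at 47.1% and 49.1%, BRG1 at 44.3% and 47.1%, and H3K4me1 at 54.8% and 53.1%. Of 6 pluripotency genes, among them Esrrb and Dppa5a, H3K27ac and BRG1 peaks were each found at 0 and 1, FLAG peaks at 1 and 2, and H3K4me1 peaks at 3 in each arm.

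Imprinting rests on DNA methylation laid down at CpG dinucleotides in egg or sperm. The marked stretches, called germline differentially methylated regions (DMRs), often coincide with a promoter, and many act over a whole cluster through a long noncoding RNA. The protein ZFP57 keeps the methylation in place by binding the letters TGCCGC when they are methylated. The peak lists do not separate the parental copies, so that a peak on the maternal copy, the paternal copy or both looks the same. From general knowledge, 20 members were assigned to the paternal copy and 14 to the maternal copy. For 2 (Grb10 and Gnas) the copy was taken to depend on promoter or tissue. Imprinting in these fibroblasts was not measured, so that a member need not be expressed from a single copy here.

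The DNA beneath 6 FLAG summits shows the range of sites met at these clusters. Each sequence is 200 bases of mm10 on the plus strand centred on the taller FLAG summit, and capitals mark CpG dinucleotides. The first pair lie in introns and had FLAG and BRG1 peaks in NanogBiD alone. The third lies in an intron of Usp29 and had both in NanogWT alone. The last 3 lie at promoters that are germline DMRs.
Igf2r intron, chr17:12751420-12751619: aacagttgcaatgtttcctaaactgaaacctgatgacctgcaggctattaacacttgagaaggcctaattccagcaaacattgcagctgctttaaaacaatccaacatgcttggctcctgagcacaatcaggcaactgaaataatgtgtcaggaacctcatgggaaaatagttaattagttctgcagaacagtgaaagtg
Commd1 intron, chr11:22936432-22936631: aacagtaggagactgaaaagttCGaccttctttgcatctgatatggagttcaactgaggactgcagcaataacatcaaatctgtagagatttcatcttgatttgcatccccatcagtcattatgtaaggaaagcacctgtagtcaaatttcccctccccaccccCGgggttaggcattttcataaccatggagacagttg
Usp29 intron, chr7:6913886-6914085: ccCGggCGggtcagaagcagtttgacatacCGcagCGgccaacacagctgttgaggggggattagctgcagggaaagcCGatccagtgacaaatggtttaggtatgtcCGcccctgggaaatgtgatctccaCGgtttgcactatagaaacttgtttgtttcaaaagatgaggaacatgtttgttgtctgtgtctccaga
Plagl1 promoter, chr10:13090523-13090722: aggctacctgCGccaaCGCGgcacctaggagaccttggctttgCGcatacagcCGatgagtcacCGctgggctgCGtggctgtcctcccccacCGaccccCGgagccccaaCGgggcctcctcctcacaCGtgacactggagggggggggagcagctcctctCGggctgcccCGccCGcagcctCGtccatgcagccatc
Peg3 and Usp29 promoter, chr7:6728573-6728772: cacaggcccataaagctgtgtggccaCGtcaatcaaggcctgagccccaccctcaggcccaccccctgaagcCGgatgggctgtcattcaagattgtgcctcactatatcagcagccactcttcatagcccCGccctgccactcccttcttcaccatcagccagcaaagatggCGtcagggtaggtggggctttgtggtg
Mest promoter, chr6:30738140-30738339: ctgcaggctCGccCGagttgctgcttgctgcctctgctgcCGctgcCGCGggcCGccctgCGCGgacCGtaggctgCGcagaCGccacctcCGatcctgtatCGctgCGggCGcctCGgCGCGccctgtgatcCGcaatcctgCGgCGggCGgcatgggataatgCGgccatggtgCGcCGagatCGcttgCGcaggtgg

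The Igf2r sequence holds 0 CpGs and is 41% G and C, whereas the Mest promoter holds 27 CpGs and is 72% G and C. The Plagl1 promoter holds 15 CpGs, the Usp29 intron 7, the Peg3 and Usp29 promoter 4 and the Commd1 intron 2. The Commd1 sequence contains the octamer ATGCAAAT, which OCT4 recognises, on its minus strand. The Plagl1 promoter contains the AP-1 letters TGAGTCA and a TGCCGC, and the Mest promoter contains TGCCGC 3 times.

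Over all 110 FLAG regions at the clusters, TGCCGC on either strand was found within the 200 bases at 8 summits (7.27%), against 3.71% of the 88183 FLAG regions on the standard chromosomes. AP-1 letters were found at 13 (11.8%, against 12.9%), the octamer at 6 (5.45%, against 4.04%) and the TEAD letters GGAATG at 15 (13.6%, against 13.5%). The longer pattern CGNGGNGGCAG, part of the site of the insulator protein CTCF, was found at 2 (1.82%, against 0.214%). These are matches of letters and not shown binding sites. Within 2 kb of an annotated start site lay 43 of the 110 (39.1%), against 21.5% over the series. Each cluster window holds a start site by construction and the series includes regions between genes, so that nothing is read from this difference. At promoters alone TGCCGC was found at 14% of regions, against 9.97% over the series.

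The first comparison asked whether peak numbers at imprinted clusters differed between the arms as they did elsewhere. NanogWT had 87 FLAG peaks there and NanogBiD 90. The ratio was 1.03, with an exact 95% interval of 0.762 to 1.41, whereas over the whole series it was 1.27. BRG1 peaks numbered 51 and 73, a ratio of 1.43 (0.987 to 2.09), against 1.74 over the series. H3K27ac peaks numbered 66 and 73, a ratio of 1.11 (0.782 to 1.57), against 1.2. H3K4me1 peaks numbered 103 and 85, a ratio of 0.825 (0.612 to 1.11), against 0.791. These intervals cover counting error only, and each one includes the ratio of the series. BRG1 peaks were more numerous in NanogBiD at 11 of the 17 clusters, fewer at 2 (Peg3 and Gnas) and equal at 4. For FLAG the counts were 7, 4 and 6, for H3K27ac 9, 5 and 3, and for H3K4me1 6, 10 and 1.

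**Figure D1:**
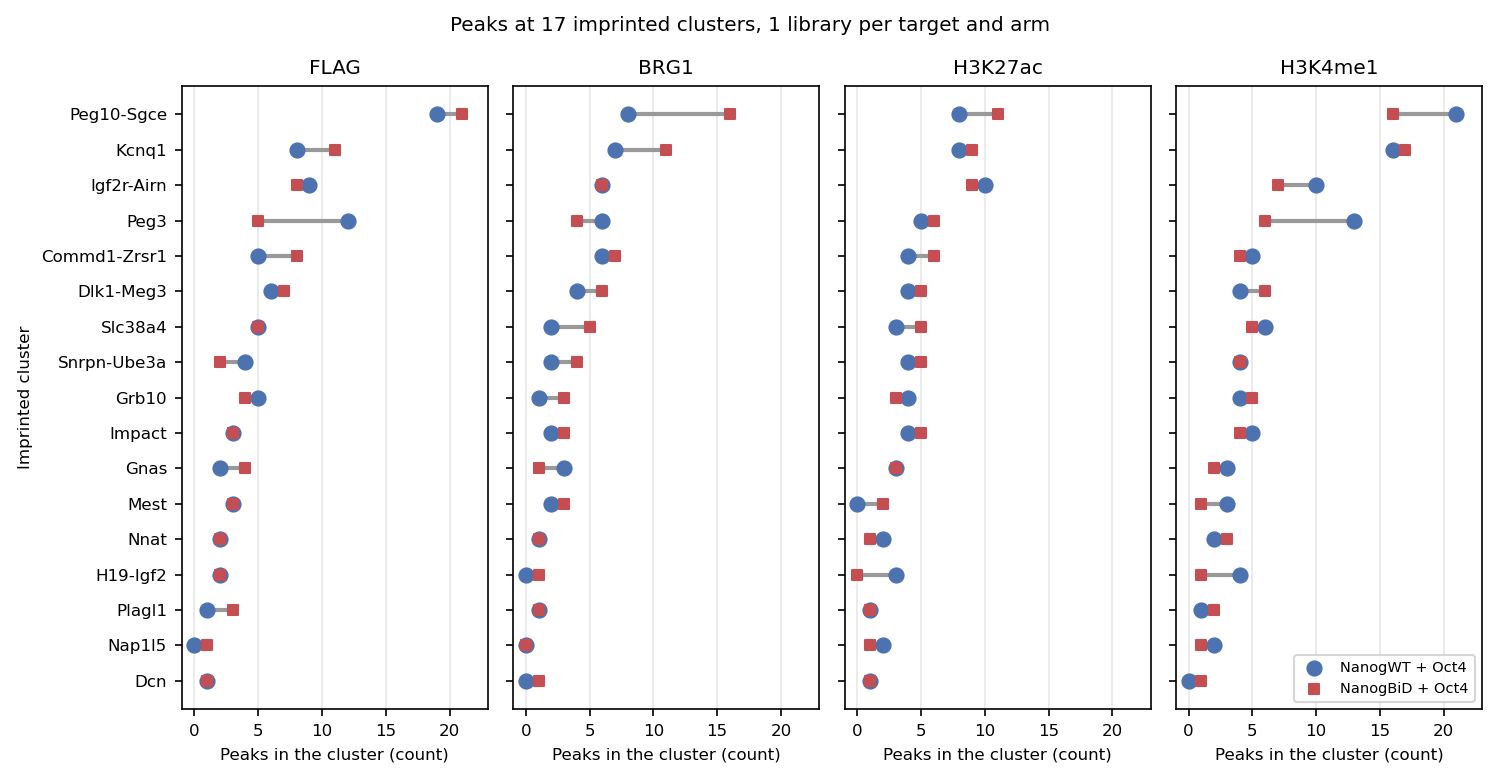
Number of peaks of each target (horizontal axis, count) at each of the 17 imprinted clusters (vertical axis), with NanogWT as circles and NanogBiD as squares, 1 library each. The longest line in the BRG1 panel is the Peg10-Sgce cluster, with 8 peaks in NanogWT and 16 in NanogBiD, and the longest in the FLAG panel is the Peg3 cluster, with 12 and 5.

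Counted by member, 33 of the 36 genes had a FLAG peak in either arm, and 10 of them had more in NanogBiD, 5 fewer and 18 the same number. Of all gene windows with a FLAG peak, 43.8% had more in NanogBiD and 16.5% fewer. BRG1 peaks were present at 31 members, more numerous in NanogBiD at 16, fewer at 3 and equal at 12, beside 48.6% and 11.3% of all gene windows. H3K27ac peaks were present at 34 members, with more in NanogBiD at 11 and fewer at 7, beside 32.5% and 15.2%. H3K4me1 peaks were present at all 36, with more at 11 and fewer at 18, beside 18.6% and 44.6%. Member windows were longer than those of other genes, with a median of 53.9 kb against 33.2 kb, and neighbouring members share peaks where their windows overlap.

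When peaks of both arms were merged into regions, the part found in NanogBiD alone was smaller for FLAG at the imprinted clusters than over the series. It was 24 of 110 FLAG regions, or 21.8% (Wilson 95% interval 15.1 to 30.4), against 33.7% of all FLAG regions. NanogWT alone had 21 (19.1%, 12.8 to 27.4), against 15.8%, and 65 were shared. For BRG1, 32 of 83 regions were in NanogBiD alone (38.6%, 28.8 to 49.3), against 48.4%, and 10 in NanogWT alone (12%, 6.68 to 20.8), against 9.91%. For H3K27ac the shares were 24.1% (16.4 to 34.1) against 29.1%, and 17.2% (10.7 to 26.5) against 14.6%. For H3K4me1 they were 15% (9.7 to 22.5) against 17.3%, and 29.2% (21.8 to 37.8) against 34.8%. The share for FLAG in NanogBiD alone was the single value of these 8 whose interval left out that of the series, and it moved to 31.2% when the 20000 highest-scoring peaks of each list were used, against 26.6%.

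**Figure D2:**
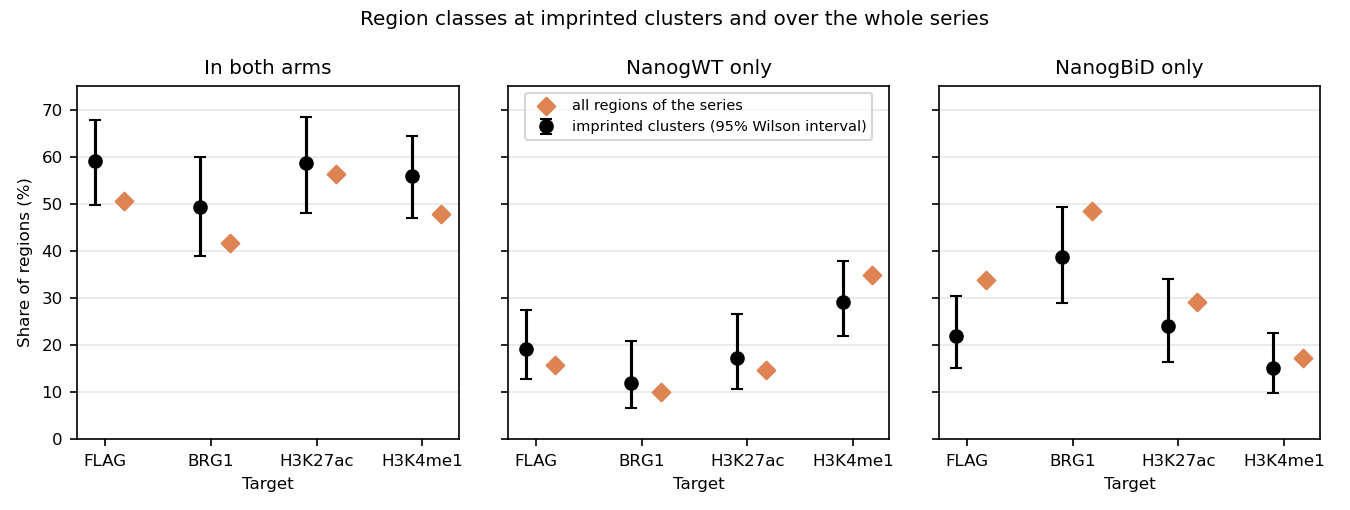
Share of regions (vertical axis, %) found in both arms, in NanogWT alone and in NanogBiD alone for each target. Circles are the imprinted clusters with Wilson 95% intervals for counting error, and diamonds are all regions of the series. FLAG regions in NanogBiD alone made up 21.8% at the clusters and 33.7% over the series.

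The lower share of FLAG regions in NanogBiD alone was seen away from promoters, a split made after the shares were known. There it was 16 of 67 regions, or 23.9% (15.3 to 35.3), against 37.8% of such regions over the series. At promoters it was 8 of 43, or 18.6% (9.74 to 32.6), against 18.7%. For the other targets the share in NanogBiD alone was above that of the series at promoters and below it elsewhere. BRG1 had 25.7% (14.2 to 42.1) against 20.9% at promoters, and 47.9% (34.5 to 61.7) against 59.1% elsewhere. H3K27ac had 17.8% (9.29 to 31.3) against 13.7%, and 31% (19.1 to 46) against 37%. These 4 intervals include the share of the series, and those of H3K4me1 do not. For H3K4me1, 11 of 49 regions at promoters were in NanogBiD alone, or 22.4% (13 to 35.9), against 11.9%, whereas elsewhere it was 7 of 71, or 9.86% (4.86 to 19), against 19.2%.

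BRG1 accompanied FLAG more often in NanogBiD than in NanogWT in the full lists, in which BRG1 had 30859 peaks in NanogWT and 53748 in NanogBiD, the deeper library. Of the 87 FLAG peaks in NanogWT, 44 overlapped a BRG1 peak (50.6%, 40.3 to 60.8), and of the 90 in NanogBiD, 63 did (70%, 59.9 to 78.5). Over the series the shares were 44.1% and 64.7%, so that the step at imprinted clusters was of similar size to that at large. When every list was cut to its 20000 peaks of highest score, the shares at the clusters were 72.7% in NanogWT and 71.4% in NanogBiD, against 60.5% and 77.5% over the series. Conversely, 86.3% of BRG1 peaks at the clusters overlapped FLAG in each arm (intervals 74.3 to 93.2 and 76.6 to 92.4), against 84.4% and 90.5% over the series. When FLAG and BRG1 lists were merged together, 118 regions lay at the clusters. In 35 both proteins had peaks in both arms (29.7%, against 23.7% over the series). In 21 FLAG was present in both arms and BRG1 in NanogBiD alone (17.8%, against 15.2% over the series). Regions with both proteins in NanogBiD alone numbered 5 (4.24%, against 11.1%), and with both in NanogWT alone 4 (3.39%, against 1.55%). FLAG without BRG1 was found in NanogBiD alone at 15 (12.7%, against 18.5%) and in NanogWT alone at 13 (11%, against 11.4%).

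At the 21 regions that carried FLAG in both arms and BRG1 in NanogBiD alone, the FLAG summit was taller in NanogBiD at 19, and the median log2 change was 0.45. Over the series 71.7% of such regions were taller, with a median of 0.38. At the 35 regions with both proteins in both arms, FLAG was taller at 17 and lower at 15, with a median of 0.00, against 0.10 over the series. Over all 65 shared FLAG regions the median log2 change was 0.28 (order-statistic 95% interval 0.00 to 0.39), against 0.15 over the series. With scores in place of heights it was 0.04 (-0.09 to 0.39), against 0.05. The medians were 0.00 for BRG1 (-0.09 to 0.29, 41 regions), 0.00 for H3K27ac (-0.09 to 0.12, 51 regions) and -0.22 for H3K4me1 (-0.30 to -0.11, 67 regions). Over the series they were 0.14, 0.08 and -0.18.

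A germline DMR promoter was assigned from general knowledge to 14 members, and peaks within 2 kb of any annotated start of the gene were counted. A counted peak therefore need not lie at the DMR. Peg3 and Usp29 share a promoter, as do Peg10 and Sgce, so the same peaks count for both genes of each pair. Of the 14, 11 had a FLAG peak in each arm, and 11 had a BRG1 peak in each arm, at the same genes in both arms for each protein. H3K27ac was present at 11 in NanogWT and 12 in NanogBiD, with 10 in both, beside 47.4% and 50.3% of all genes. H3K4me1 was present at 12 and 9, with 4 in NanogWT alone and 1 in NanogBiD alone, beside 54.8% and 53.1% of all genes, with 1916 and 1394 promoters in those arms alone. FLAG was missing in both arms at Snrpn, Nap1l5 and Slc38a4, and BRG1 at Snrpn, Nap1l5 and Nnat. Over all genes FLAG was present at 47.1% of promoters in NanogWT and 49.1% in NanogBiD, and BRG1 at 44.3% and 47.1%. A peak in both arms was the usual case there too: FLAG had 13706 promoters in both, 1162 in NanogWT alone and 1791 in NanogBiD alone, and BRG1 had 12985, 1007 and 1890. The other 22 members had FLAG at 13 promoters in each arm, 12 of them in both. Their BRG1 count was 10 in NanogWT and 14 in NanogBiD, the additional 4 being Dcn, Magel2, Ppp1r9a and Rian. Their H3K27ac count was 16 and 14, and the NanogBiD peak near Rian lay outside the 2 kb. Their H3K4me1 count ran the other way from that of the 14, at 12 and 17, with 1 in NanogWT alone and 6 in NanogBiD alone. The counts for the 14 are not all at the DMR. Airn was counted for H3K4me1 in both arms through another start, and its DMR promoter had no H3K4me1 peak. At Plagl1 the NanogBiD H3K4me1 peak lay away from the promoter site given below. Grb10 and Gnas, which have several promoters, were counted with the other members even if a germline DMR lies at any of those promoters. The split between the groups rests on this choice.

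**Figure D3:**
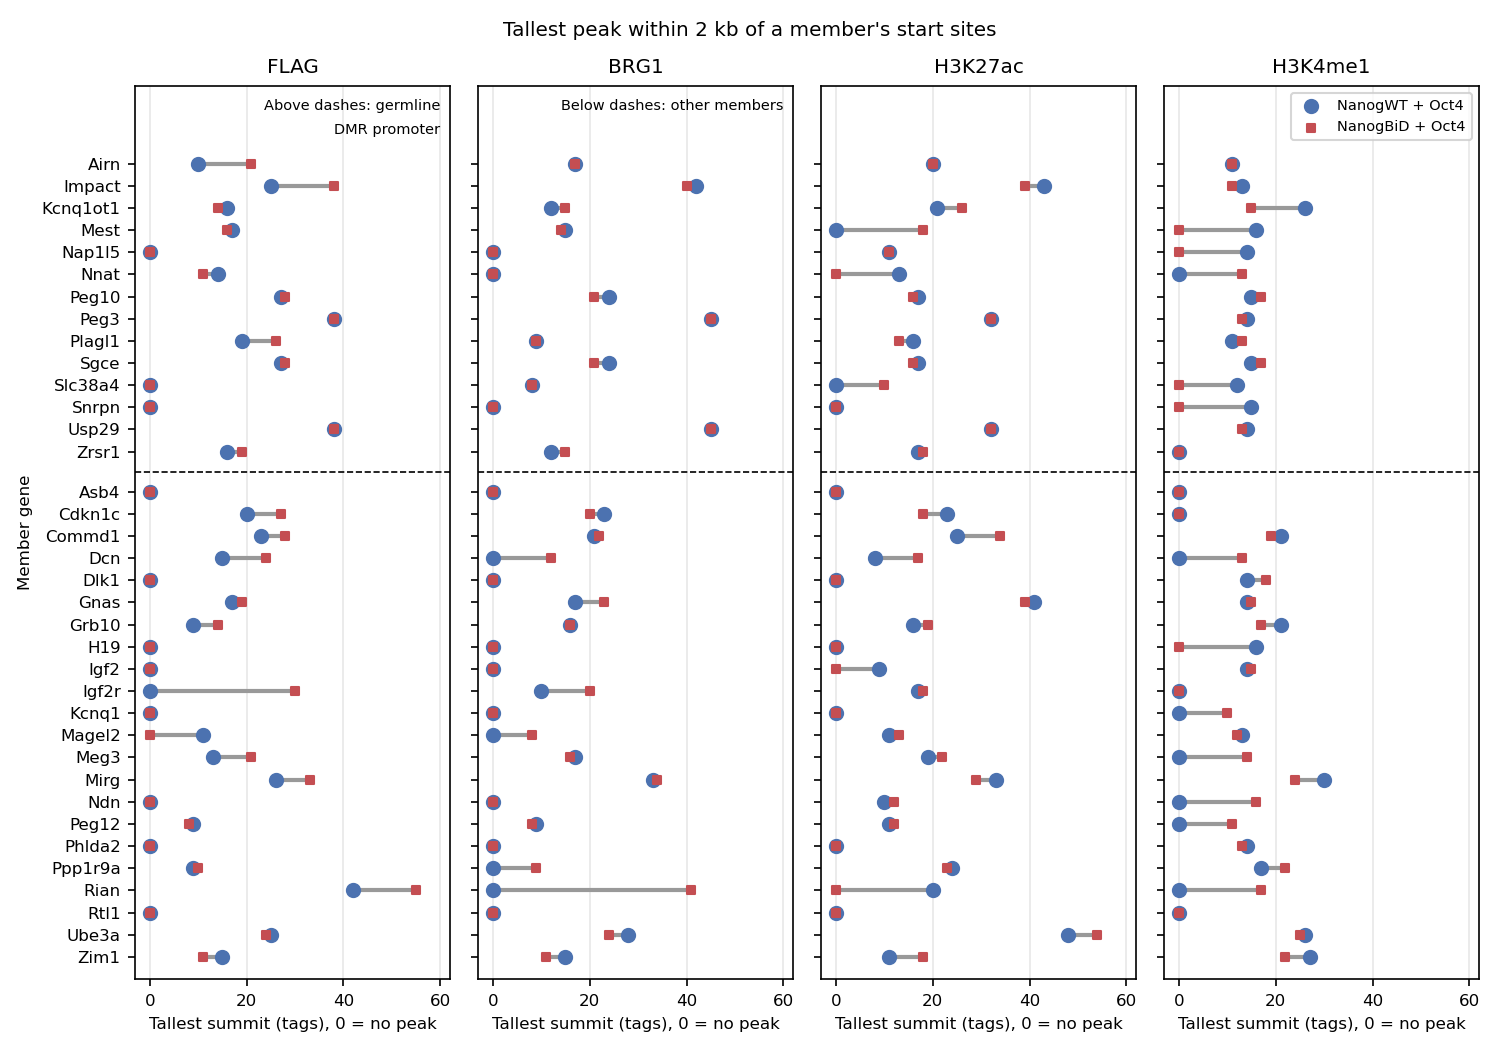
Tallest summit (horizontal axis, tags) within 2 kb of any annotated start site of each of the 36 members (vertical axis), for each target, with NanogWT as circles, NanogBiD as squares and 0 where there was no peak. The 14 members above the dashed line were assigned a germline DMR promoter, and at Peg3 the FLAG symbols coincide at 38 tags and the BRG1 symbols at 45.

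Peg3 encodes a zinc finger protein expressed from the paternal copy, and it shares a promoter with Usp29, a long gene transcribed the other way. Their promoter (chr7:6727013-6730852) was the tallest BRG1 site of any member. FLAG reached 38 tags in each arm, BRG1 45 in each and H3K27ac 32 in each, and H3K4me1 14 in NanogWT and 13 in NanogBiD. The body of Usp29 differed from its promoter. The cluster, which includes the maternally expressed Zim1, had 12 FLAG peaks in NanogWT and 5 in NanogBiD, 6 and 4 BRG1 peaks, and 13 and 6 H3K4me1 peaks, while H3K27ac had 5 and 6. Of its 13 FLAG regions, 8 were in NanogWT alone, all inside Usp29, with heights of 8 to 18 tags and scores of 54.13 to 152.79. The ratio of FLAG peaks in this cluster was 0.417 (0.115 to 1.27).

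In 2 of these Usp29 regions BRG1 too had a peak in NanogWT alone. At chr7:6913452-6914629, in an intron, FLAG stood at 18 tags and BRG1 at 10 in NanogWT with no peak in NanogBiD, and H3K27ac went from 19 to 14 and H3K4me1 from 21 to 14. At chr7:6856740-6857446 FLAG stood at 16 and BRG1 at 8, and H3K4me1 at 12 and 10. Their BRG1 scores, 55.97 and 57.84, lay close to the lowest score of the lists. A neighbouring intron site (chr7:6882336-6883272) ran the other way for BRG1, which had 17 tags in NanogBiD and no peak in NanogWT, while FLAG went from 23 to 15. Without this cluster, the remaining clusters held 75 and 85 FLAG peaks (ratio 1.13), and 23.7% of FLAG regions were in NanogBiD alone.

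**Figure D4:**
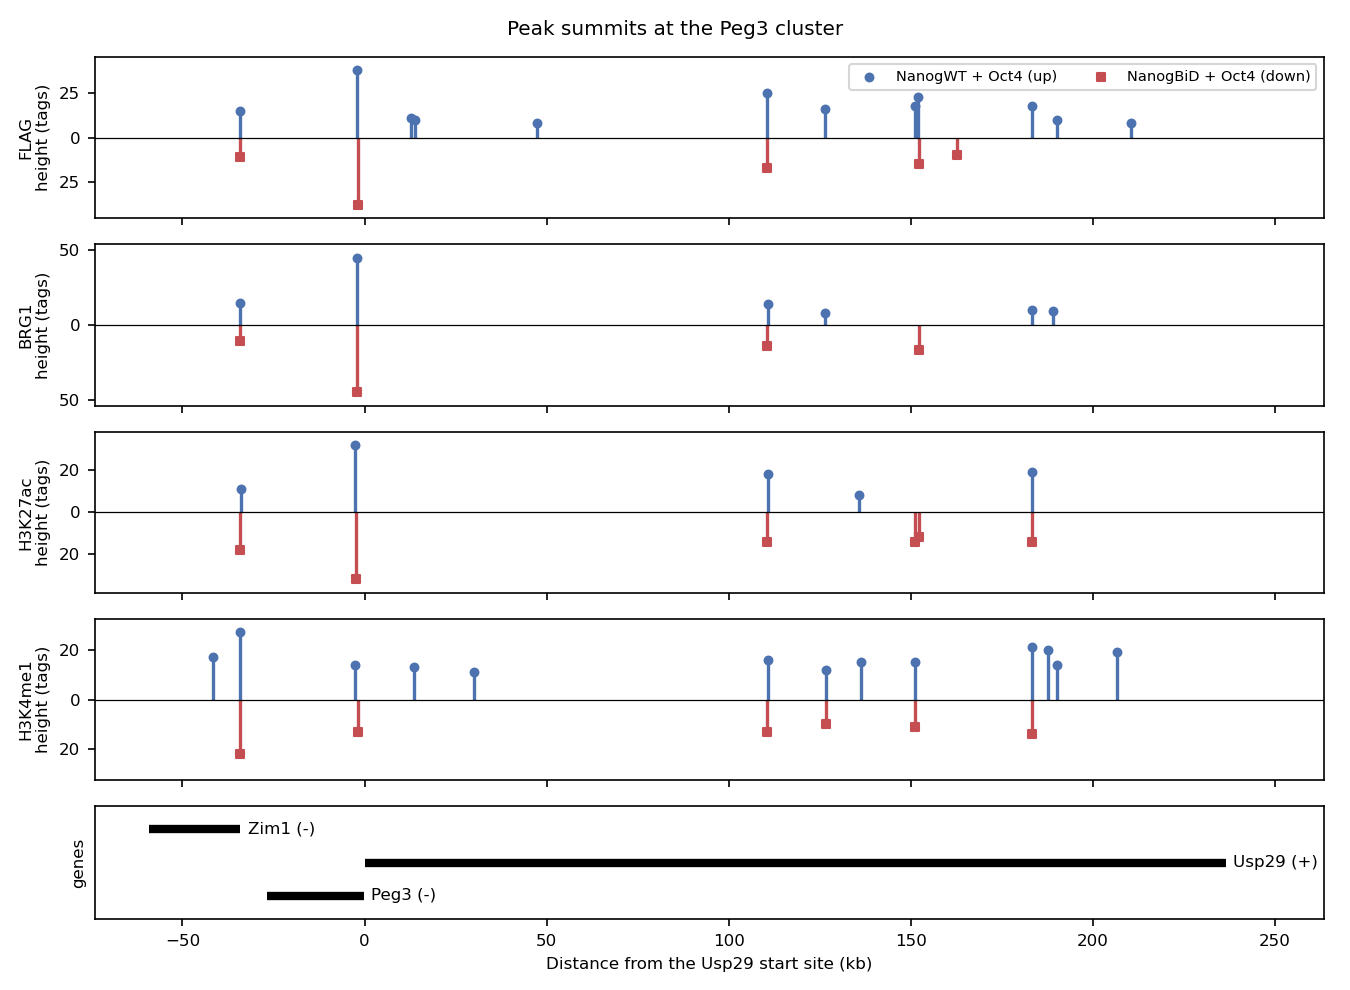
Peak summits across the Peg3 cluster by distance from the Usp29 start site (horizontal axis, kb), with height in tags (vertical axis) drawn upward for NanogWT and downward for NanogBiD, and gene bodies as bars. At the shared promoter both arms reach 38 tags for FLAG, whereas FLAG in the Usp29 body is mostly on the NanogWT side.

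Igf2r encodes the receptor that clears the growth factor IGF2, is expressed from the maternal copy, and is silenced on the paternal copy by Airn, a noncoding RNA that starts inside it. Across both genes FLAG peaks numbered 9 in NanogWT and 8 in NanogBiD, and BRG1 peaks 6 in each. The places differed. At chr17:12749399-12752123, in an intron of both genes and at the start of a shorter annotated Igf2r transcript, FLAG had 30 tags, BRG1 20 and H3K27ac 18 in NanogBiD, and none of the 3 had a peak in NanogWT. It led the regions with both proteins in NanogBiD alone, with a FLAG score of 229.51 and a BRG1 score of 182.25, and is the sequence without CpGs above. At the Airn promoter (chr17:12740972-12741997), a germline DMR, FLAG went from 9 tags to 21, whereas BRG1 stayed at 17 and H3K27ac at 20. At the main Igf2r start (chr17:12768542-12770162) FLAG had 11 tags in NanogBiD alone and BRG1 10 in NanogWT alone, with H3K27ac at 17 and 15.

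**Figure D5:**
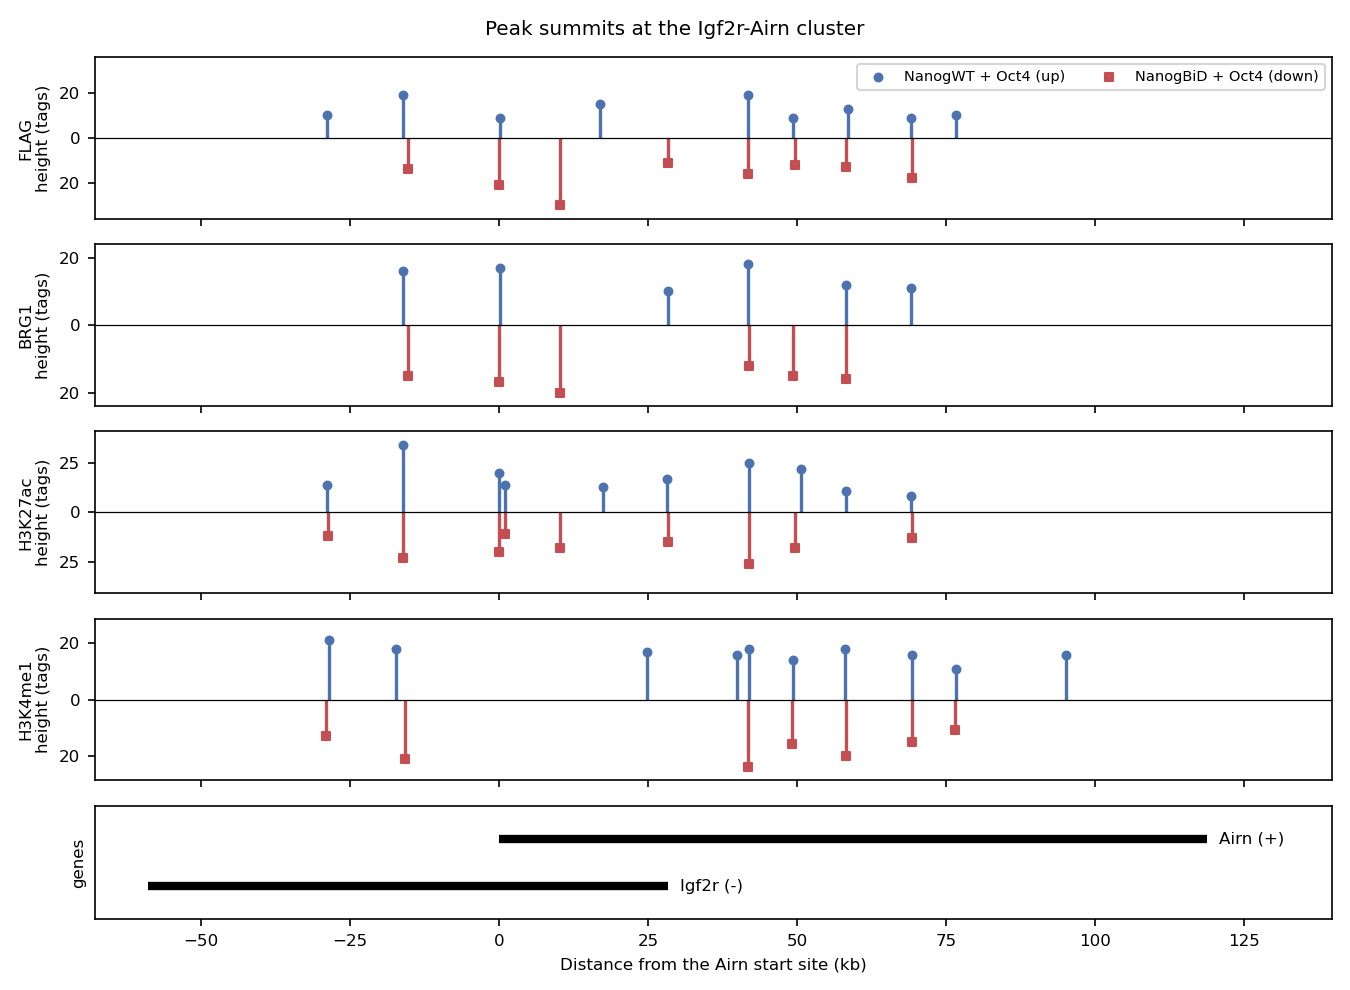
Peak summits across Igf2r and Airn by distance from the Airn start site (horizontal axis, kb), with height in tags (vertical axis) drawn upward for NanogWT and downward for NanogBiD, and gene bodies as bars. About 10 kb downstream of the Airn start, FLAG, BRG1 and H3K27ac reach 30, 20 and 18 tags on the NanogBiD side, with nothing opposite.

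The Kcnq1 cluster is silenced on the paternal copy by the noncoding RNA Kcnq1ot1, whose promoter is a germline DMR within the potassium channel gene Kcnq1. The promoter of Kcnq1ot1 (chr7:143295878-143297081) had FLAG at 16 and 14 tags, BRG1 at 12 and 15, H3K27ac at 21 and 26, and H3K4me1 at 26 and 15 in NanogWT and NanogBiD. Inside the transcribed part of Kcnq1ot1 (chr7:143208027-143208734), FLAG had 18 tags and BRG1 14 in NanogBiD alone. The cluster as a whole had 8 FLAG peaks in NanogWT and 11 in NanogBiD, and 7 and 11 BRG1 peaks. Beyond the end of Kcnq1 (chr7:143428668-143430489) FLAG went from 42 to 25 while BRG1 went from 9 to 15. In a Kcnq1 intron (chr7:143388936-143389952) both were lower in NanogBiD, FLAG at 18 and 10 and BRG1 at 15 and 9. At Cdkn1c, a growth-restraining inhibitor of cyclin-dependent kinases, the promoter had FLAG at 20 and 27 and BRG1 at 23 and 20. Phlda2, which restrains placental growth, had a single FLAG peak of 12 tags in NanogBiD and no BRG1 peak.

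The Peg10-Sgce cluster held the most peaks, with 19 FLAG peaks in NanogWT and 21 in NanogBiD, and 8 and 16 for BRG1, a BRG1 ratio of 2 (0.808 to 5.4). Peg10, a gene derived from a retrotransposon, and Sgce, a sarcoglycan, share a germline DMR promoter. The region over both starts (chr6:4747064-4748541) had FLAG at 15 and 11 tags and no BRG1 peak, and a neighbour 1.34 kb from the Peg10 start (chr6:4748749-4749683) had FLAG at 27 and 28 and BRG1 at 24 and 21. The largest differences lay inside genes. In an intron of Asb4, an ankyrin repeat gene, at chr6:5408179-5409504, FLAG went from 12 to 34 and BRG1 from 8 to 25, a FLAG log2 change of 1.50, which was the largest among the members. In a Ppp1r9a intron (chr6:5026499-5027512) FLAG went from 9 to 24 with BRG1 at 12 in NanogBiD alone. In a Sgce intron (chr6:4690179-4691708) FLAG went from 13 to 29 with BRG1 at 19 in NanogBiD alone. Ppp1r9a, which encodes the neuronal scaffold neurabin, also held the largest FLAG log2 change in the other direction, -1.0 at chr6:5010847-5013143. There FLAG went from 24 to 12 and BRG1 from 9 to 11.

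In the Dlk1-Meg3 cluster, whose noncoding RNAs Meg3, Rian and Mirg are maternal and whose protein genes Dlk1 and Rtl1 are paternal, FLAG peaks numbered 6 and 7 and BRG1 peaks 4 and 6. The tallest FLAG summit of any member in NanogBiD lay near a Rian start (chr12:109605962-109607784), with 42 tags in NanogWT and 55 in NanogBiD, and BRG1 there went from 18 to 41. H3K27ac there stood at 20 and 21. The BRG1 peak of NanogWT and the H3K27ac peak of NanogBiD in this region lay more than 2 kb from the start site, so they are not counted at the promoter above. The window of Rtl1 reaches this region and held no other FLAG or BRG1 peak. Mirg had FLAG at 26 and 33 and BRG1 at 33 and 34 within its promoter. A second Rian site, in an intron (chr12:109627767-109629645), had FLAG at 18 and BRG1 at 11 in NanogBiD alone. Upstream of Dlk1 (chr12:109445656-109446695) FLAG at 15 and BRG1 at 14 were found in NanogWT alone, whereas H3K27ac was near equal at 17 and 16. At the Meg3 promoter FLAG stood at 13 and 21 and BRG1 at 17 and 16.

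H19, a noncoding RNA, and Igf2, a growth factor, are switched by a control region upstream of H19 that CTCF binds on the maternal copy. The region with FLAG peaks closest upstream of H19 (chr7:142580213-142581951, 2.07 kb from its start) had FLAG at 11 tags in NanogWT and 12 in NanogBiD, and BRG1 at 7 in NanogBiD alone, with a score of 50.58. H3K27ac at 11 and H3K4me1 at 16 were found there in NanogWT alone. Across both genes H3K27ac peaks went from 3 to 0 and H3K4me1 peaks from 4 to 1, and Igf2 had no FLAG or BRG1 peak in either arm. A count of 3 against 0 allows a ratio of up to 2.42.

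At Slc38a4, an amino acid transporter, the promoter had no FLAG peak in either arm and BRG1 at 8 tags in both. Within the body, FLAG went from 29 to 54 and BRG1 from 10 to 34 at chr15:97013789-97016176, and FLAG from 18 to 38 at chr15:97007776-97010177, where BRG1 had 21 tags in NanogBiD alone and H3K27ac went from 11 to 29. The octamer letters were found at the first of these summits and AP-1 letters at the second. This pair were picked after their values were seen. Elsewhere in the body FLAG stood at 9 and 14, at 10 and 11, and at 11 in NanogWT alone. The flank of the gene (chr15:96991638-96992324) had FLAG at 12 and BRG1 at 10 in NanogBiD alone. BRG1 peaks over the locus numbered 2 and 5.

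Mest, a paternally expressed hydrolase gene, had near equal FLAG (17 and 16 tags) and BRG1 (15 and 14) at its germline DMR promoter (chr6:30736055-30738660), while the marks differed. H3K27ac had no peak in NanogWT and 18 tags in NanogBiD, and H3K4me1 had 16 tags in NanogWT and no peak in NanogBiD. At Plagl1, a zinc finger regulator of growth, the promoter site chr10:13090268-13091390 had FLAG at 19 and 11 tags, and BRG1 stood at 9 in both arms. Another start of the gene had a FLAG peak of 26 tags in NanogBiD alone, without BRG1. At Impact, a regulator of translation, the promoter had FLAG at 25 and 38 and BRG1 at 42 and 40. The Zrsr1 promoter, which lies inside Commd1, had FLAG at 16 and 19 and BRG1 at 12 and 15. In Commd1, a copper metabolism gene, an intron site (chr11:22936138-22937037) had FLAG at 28 and BRG1 at 15 in NanogBiD alone.

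Nnat, which encodes the membrane protein neuronatin, had FLAG at its promoter in both arms but at separate regions, 14 tags in NanogWT and 11 in NanogBiD. At Gnas, which encodes a G protein subunit, a region at a group of start sites (chr2:174327159-174328133) had FLAG and BRG1 at 17 tags each in NanogWT alone, with scores of 51.51 and 53.98 near the lowest of the lists. The adjoining Gnas region (chr2:174328770-174331520) had FLAG at 14 and 19 and BRG1 at 17 and 23. The promoter of Dcn, which encodes the fibroblast matrix protein decorin, had FLAG at 15 and 24, BRG1 at 12 in NanogBiD alone, and H3K27ac at 8 and 17. Grb10, an adaptor of insulin signalling, had 5 and 4 FLAG peaks and 1 and 3 BRG1 peaks.

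The Snrpn-Ube3a cluster was sparse. Snrpn, a splicing gene whose germline DMR controls the cluster, had no FLAG, BRG1 or H3K27ac peak in either arm and a single H3K4me1 peak of 15 tags in NanogWT. Ndn had no FLAG or BRG1 peak, and Magel2 had FLAG at 11 in NanogWT alone and BRG1 at 8 in NanogBiD alone. Peg12 had FLAG at 9 and 8 and BRG1 at 9 and 8 within its promoter. Ube3a, the ubiquitin ligase of the cluster, had FLAG at 25 and 24, BRG1 at 28 and 24 and H3K27ac at 48 and 54. Nap1l5, a nucleosome assembly gene, had a single FLAG peak of 15 tags in NanogBiD and no BRG1 peak.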

How the data were processed

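Peak lists of 8 CUT&Tag libraries were used, which is a single library for each target and arm. Per the labels, the authors trimmed reads with Trim Galore 0.6.4, aligned them to mm10 with Bowtie2 2.4.5, filtered them with SAMtools 1.16.1 and called peaks with MACS 1.4.2. Per the methods, replicates were merged before calling and duplicates reduced to a single tag. The reporting summary states in its CUT&Tag entry that this was done a single time without biological replicates, and in a general entry that every experiment was repeated, so that the number of replicates behind a list is not settled. The deposited peak score is the significance score of MACS, and the deposited summit signal is the tag pileup. Neither is scaled to depth. The supplement lists more read pairs in NanogBiD for FLAG and BRG1 and fewer for both histone marks, and these totals were not used for scaling. The deeper library of a pair had the longer list for each target but H3K27ac. The labels and the methods differ on the library kit and on the number of cells used.

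Peaks overlapping by at least 1 bp or touching were merged into regions, with the tallest summit of each arm kept. A region belonged to a locus if it overlapped a GENCODE M21 gene body or its 10 kb flanks. Promoters were 2 kb either side of any start site. Motif letters were counted on both strands in 200 bp at the taller FLAG summit. Named regions were up to 5 with FLAG and BRG1 in each arm alone, ranked by the lower of their scores, and promoters with a germline DMR. Also named were the 4 regions with the largest increase and the 4 with the largest decrease of FLAG height, ranked by log2 change. Other regions and promoters named in the text were chosen after their values were seen. Shares carry Wilson 95% intervals (SciPy 1.17.1) and ratios exact binomial ones, for counting error only. The members, clusters, imprinting status (from general knowledge) and gene lists were chosen with earlier results of these data known. The assignment of regions to arms was tested on simulated data, where 0 of 6000 sites were given a wrong class. Alternatives were other flanks, score and height limits, the 20000 highest-scoring peaks, merging across gaps, windows at summits, scores in place of heights and centring.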

Additional observations from a re-analysis of the deposited data

How the results depend on the processing

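Of 46 recomputed shares 35 stayed inside the interval of the reported share, and of 40 recomputed medians 37 did. The share of FLAG regions in NanogBiD alone was below that of all regions in 7 of 8 alternatives, and its interval left out that of the series in 5. With the 20000 highest-scoring peaks, NanogBiD alone had 31.2% of FLAG regions (26.6% over the series), 16.7% of BRG1 (27%), 16.2% of H3K27ac (17.9%) and 36.1% of H3K4me1 (27.5%), so that FLAG and H3K4me1 lay above the series. FLAG peaks overlapped BRG1 at 72.7% in NanogWT (60.5%) and 71.4% in NanogBiD (77.5%). This setting makes list lengths equal and raises the score limit together. With a height of at least 15 tags, FLAG in NanogBiD alone was 31.6% (40.1% over the series) and the H3K4me1 median -0.09 (-0.13). With windows of 100 bp at summits, NanogBiD alone had 31% of FLAG regions (39.9% over the series), 35.9% of H3K27ac (39.8%) and 26.4% of H3K4me1 (28.2%), and FLAG overlapped BRG1 at 37.9% in NanogWT (31.7%) and 55.6% in NanogBiD (53.2%). Centring on all shared regions gave medians of 0.13 (-0.15 to 0.24) for FLAG, -0.14 for BRG1 and -0.04 for H3K4me1, and scores in place of heights 0.04 (-0.09 to 0.39) for FLAG. The causes of these moves were not tested. Leaving out the Peg3 cluster was added after its counts were seen.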

Other observations

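A separate list of 42 other imprinted genes, of which 40 were found among annotated genes of the same types, gave counts beside those of the members. Of 33 with a FLAG peak, 16 had more in NanogBiD (48.5%, against 30.3% of the members and 43.8% of all genes), 5 fewer and 12 the same number. Of 28 with a BRG1 peak, 15 had more (53.6%, against 51.6% and 48.6%), 3 fewer and 10 the same. H3K27ac peaks were present at 26, with more at 6 (23.1%, against 32.5% of all genes) and fewer at 6, and H3K4me1 peaks at 37, with more at 9 (24.3%, against 18.6%) and fewer at 18.

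A list of 16 regulators of imprinting, genes that lay down, keep or erase DNA methylation or bind imprinted control regions, was counted the same way. FLAG peaks were present at 15 of them, with more in NanogBiD at 5 (33.3%), fewer at 2 and the same number at 8, beside 43.8% more and 16.5% fewer among all genes. BRG1 peaks were present at 14, with more at 8 (57.1%), fewer at 1 and the same number at 5, beside 48.6% and 11.3%. For H3K27ac 8 of 16 had more (50%) and 3 fewer, beside 32.5% and 15.2%. For H3K4me1 3 of 16 had more (18.8%) and 7 fewer, beside 18.6% and 44.6%.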
